A study of Mus musculus with 2 samples.

Results

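*Csnka2ip*, *Ms4a14*, *Satl1* and *Fhad1* are 4 of the 4788 protein-coding genes listed in an FMRP RNA immunoprecipitation sequencing (RIP-seq) experiment on mouse testis, and they were chosen by their ratio of FMRP RIP to input, which is among the highest in the table. The ratio is log2 of (FMRP RIP CPM + 1) over (input CPM + 1), where CPM is the reads on a gene per 1000000 reads of its library and 1 CPM is the pseudocount that keeps low genes from dividing by values near 0. Both libraries came from testis of adult wild type male mice. The input library was made from lysate set aside before precipitation, and the FMRP RIP library from RNA recovered with an anti-FMRP antibody. There was 1 library per group, so no difference here has a replicate check and no test between the groups was made. No IgG library was used here. The totals behind the CPM values, recovered from the steps between low values, were 30849871 input reads and 36506932 FMRP RIP reads. The table holds only genes with a call of higher recovery by the authors, so every ratio in it is above 1 by selection, and a gene outside it has no level here. Counts of listed genes are counts of Ensembl entries: 43 of the 4745 symbols have a second entry, 35 of these with the same values as the first, and none of the 4 genes does.

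FMRP, the product of *Fmr1*, is an RNA-binding protein that associates with translating ribosomes and with transport granules, and it is best known for restraining the translation of its target mRNAs in neurons. In the testis it is found in germ cells, where many mRNAs are made early and held in ribonucleoprotein particles until the spermatid needs them. RIP recovers whole transcripts that precipitate with the protein, directly or through other proteins, and it does not locate the contact within a transcript. Among the 4 genes, *Csnka2ip* encodes a protein that binds the alpha prime catalytic subunit of casein kinase 2, a kinase needed for normal sperm head shape. *Ms4a14* belongs to the membrane-spanning 4-domains family, whose members cross the membrane several times. *Satl1* is named for its resemblance to spermidine/spermine N1-acetyltransferase, the enzyme that marks polyamines for breakdown or export. *Fhad1* carries a forkhead-associated (FHA) domain, a fold that binds phosphorylated threonine.

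The 4 genes lie on different chromosomes and differ widely in span, the length of the gene on the chromosome with introns included. *Csnka2ip* (ENSMUSG00000068167) was listed at chr16:64477810-64602408, a span of 124.6 kb. *Ms4a14* (ENSMUSG00000099398) was listed at chr19:11301249-11314454 and spans only 13.2 kb. *Satl1* (ENSMUSG00000025527), at chrX:112384303-112406779, spans 22.5 kb. *Fhad1* (ENSMUSG00000051435), at chr4:141890438-142015082, spans 124.6 kb, almost the span of *Csnka2ip*. All coordinates are of GRCm38, and all 4 genes lie on the minus strand, as do 2380 of the 4788 listed genes. The median span of the listed genes was 47.5 kb, and it was 85.5 kb among the 100 genes with the highest ratio. *Ms4a14* and *Satl1* were the only genes under 25 kb among the 20 with the highest ratio, against 1334 (27.9%) of all listed genes. RefSeq held 3 transcripts for *Csnka2ip*, 4 for *Ms4a14*, 1 for *Satl1* and 17 for *Fhad1*, and the median over the listed genes was 5. Transcript lengths were not used here, so CPM is not divided by length and the levels of different genes are not compared as numbers of molecules.

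A feature that the ratio did not enter is the sequence upstream of each start site, shown here because these windows hold few CpG dinucleotides while most windows of listed genes hold more. The 250 bases before the start site follow, 5′ to 3′ on the minus strand, from RefSeq (GRCm38.p6), with every CpG dinucleotide in capitals. They lie at chr16:64602332-64602581 for *Csnka2ip*, chr19:11314455-11314704 for *Ms4a14*, chrX:112406780-112407029 for *Satl1* and chr4:142011652-142011901 for *Fhad1*, whose start site in that table is 3431 bp inside the listed gene (for *Csnka2ip*, 77 bp). The table holds 1 start site for each of the 4 genes, and RefSeq places the outer end of *Ms4a14* (11315877) and of *Fhad1* (142015127) further upstream, where no window was examined.
Csnka2ip: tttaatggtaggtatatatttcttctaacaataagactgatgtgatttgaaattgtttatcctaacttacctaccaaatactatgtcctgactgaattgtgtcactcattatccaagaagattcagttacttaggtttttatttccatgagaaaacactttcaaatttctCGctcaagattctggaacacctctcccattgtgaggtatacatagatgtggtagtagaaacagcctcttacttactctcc
Ms4a14: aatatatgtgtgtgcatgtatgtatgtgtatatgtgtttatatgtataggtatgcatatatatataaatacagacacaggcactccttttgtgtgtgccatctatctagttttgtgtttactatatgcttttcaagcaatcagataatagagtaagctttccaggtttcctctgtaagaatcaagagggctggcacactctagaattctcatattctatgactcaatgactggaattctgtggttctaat
Satl1: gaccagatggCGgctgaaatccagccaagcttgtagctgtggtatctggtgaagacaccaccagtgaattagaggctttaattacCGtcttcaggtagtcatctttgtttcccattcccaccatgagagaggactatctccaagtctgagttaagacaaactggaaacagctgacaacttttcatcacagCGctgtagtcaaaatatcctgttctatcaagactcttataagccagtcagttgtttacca
Fhad1: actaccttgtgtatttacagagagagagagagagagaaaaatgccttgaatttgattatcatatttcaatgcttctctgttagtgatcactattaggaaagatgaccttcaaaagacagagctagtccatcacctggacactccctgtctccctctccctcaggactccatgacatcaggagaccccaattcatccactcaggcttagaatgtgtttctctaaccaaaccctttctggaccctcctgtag

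*Csnka2ip* had 1 CpG in these bases, *Ms4a14* and *Fhad1* had 0, and *Satl1* had 3. The median was 16 CpG in the 4983 upstream windows of listed genes (3752 symbols had at least 1 window) and 6 in all 32841 windows of the table. A count of 3 or fewer occurred in 14.4% of the windows of listed genes and in 37.8% of all windows. The G and C content was 34.4% for both *Csnka2ip* and *Ms4a14*, 44.0% for *Satl1* and 43.6% for *Fhad1*, against a median of 60.0% in the windows of listed genes. Of 4 motifs searched on both strands, TATAAA was found only upstream of *Ms4a14*, at 2 places that begin 214 and 188 bases before the start site, and CCAAT only upstream of *Fhad1*, 65 bases before it. TGACG, the core of the cyclic AMP response element, and the GC box GGGCGG were in none of the 4 windows. In the windows of listed genes, TATAAA was present in 6.64%, CCAAT in 32.6%, TGACG in 24.2% and GGGCGG in 55.1%. The letters of TGACG and of the GC box each contain a CpG, so the absence of these motifs and the low CpG count are not separate features.

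With 1 CPM added, *Csnka2ip* had the highest log2 ratio of all listed genes, and with 1 CPM divided by 8 it had rank 2. The 13 listed genes with 0 CPM in the input have no plain ratio, so their log2 ratios rest on the pseudocount. *Csnka2ip* had 7.42 CPM in the input (95% Clopper-Pearson interval 6.49 to 8.45) and 568.3 CPM in the FMRP RIP (560.6 to 576.1), from 229 and 20748 reads. The log2 ratio was 6.08, and the plain ratio without the pseudocount was 76.6 (67.2 to 87.6). By CPM alone, the transcript stood at place 2618 of the listed genes in the input and at place 186 in the FMRP RIP. The intervals cover counting error only, since PCR copies of a fragment are not independent molecules.

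*Ms4a14* had the largest gain in CPM of the 4 genes. Its level was 15.2 CPM in the input (13.8 to 16.6) and 1085 CPM in the FMRP RIP (1075 to 1096), from 468 and 39625 reads. The log2 ratio was 6.07, at rank 2, and the plain ratio was 71.5 (65.3 to 78.5), an interval that overlaps that of *Csnka2ip*. It moved from place 1857 by input CPM to place 65 by FMRP RIP CPM.

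*Satl1* was scarce in the input. Its 43 input reads gave 1.39 CPM (1.01 to 1.88), and its 3169 FMRP RIP reads gave 86.8 CPM (83.8 to 89.9). The log2 ratio of 5.20 put it at rank 6. The pseudocount took 0.76 off its log2 ratio, more than from any of the other 3 genes (0.09 to 0.18), and the plain ratio of 62.3 (46.1 to 86.2) overlaps those of both *Csnka2ip* and *Ms4a14*. The order of these 3 genes is therefore within counting error.

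*Fhad1* had the lowest ratio of the 4 genes. It had 10.5 CPM in the input (9.42 to 11.7) and 386.1 CPM in the FMRP RIP (379.8 to 392.5), from 325 and 14096 reads. The log2 ratio was 5.07, at rank 9, and the plain ratio of 36.7 (32.8 to 41.0) lies below the intervals of the other 3 genes. The ratio of *Csnka2ip* was 2.09 times and that of *Satl1* 1.70 times that of *Fhad1*.

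The 4 genes had a summed level of an input of 34.5 CPM and an FMRP RIP level of 2127 CPM, a quotient of 61.6. They held 0.0243% of the input reads on listed genes and 0.385% of the FMRP RIP reads on listed genes. Over the whole table the log2 ratio had a median of 1.35, and the plain ratio a median of 3.05 where the input was above 0. A log2 ratio above 1 was reached by 3355 listed genes (70.1%) and a log2 ratio above 5 by 9 (0.188%), and all 4 genes are among these 9 by the way they were chosen. All 4 genes had whole numbers of reads in both libraries (within 0.001 read), as did 73.2% of the listed genes. The other genes hold fractions of a read, and what made these is not given in the sources used here.

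**Figure D1:**
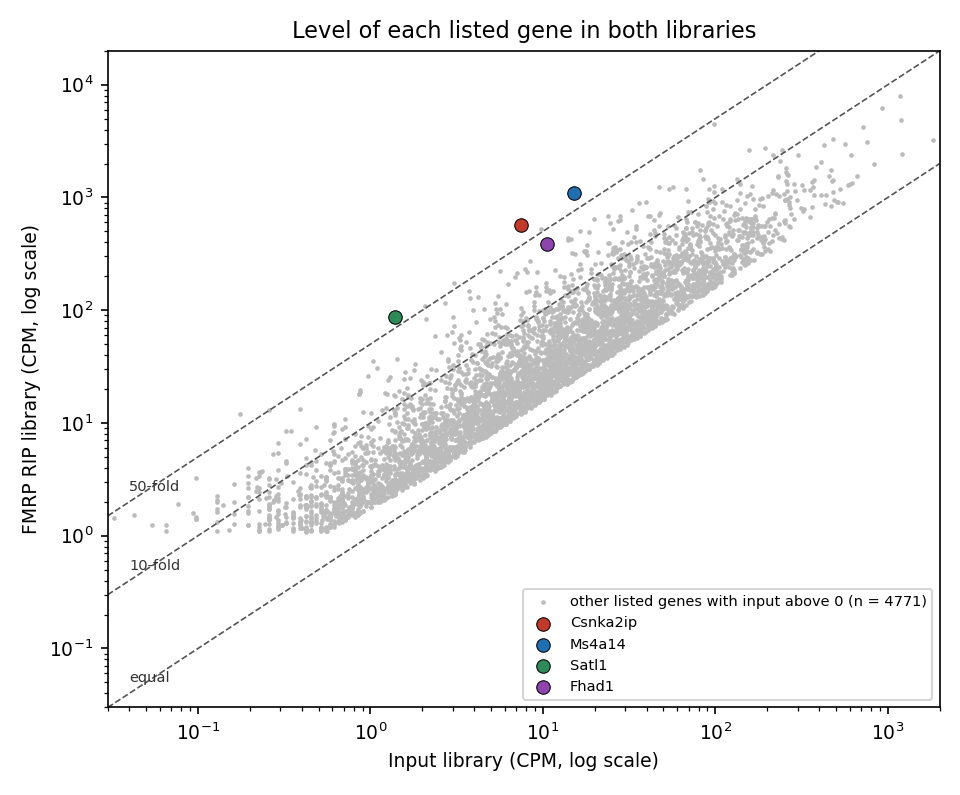
Input level (x axis, CPM, log scale) and FMRP RIP level (y axis, CPM, log scale) of the listed genes, with dashed lines at equality, 10-fold and 50-fold. *Csnka2ip*, *Ms4a14* and *Satl1* lie above the 50-fold line and *Fhad1* below it at 36.7-fold; the empty band along the line of equality reflects the authors' selection of genes.

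The other genes with a log2 ratio above 5 were *Gm45861* (5.61, rank 3), *Akap12* (5.49, rank 4), *Hivep1* (5.43, rank 5), *Mki67* (5.16, rank 7) and *Gm11639* (5.09, rank 8). The plain ratio of *Gm45861* was 53.8 (48.0 to 60.6), below the intervals of *Csnka2ip* and *Ms4a14*. *Akap12*, a kinase anchoring scaffold, had a ratio of 45.4 (43.8 to 47.1) and, like *Gm45861*, lay below *Ms4a14* by more than counting error. *Hivep1*, a zinc finger transcription factor, had 57.0 (46.5 to 70.6), and *Mki67*, the proliferation antigen Ki-67, had 52.5 (41.0 to 68.3). Their intervals overlap that of *Satl1*, so ranks 5, 6 and 7 do not differ beyond counting error. Just outside the 9 genes, *9930021J03Rik* had a log2 ratio of 4.97 and a plain ratio of 39.5 (32.9 to 48.0), and *Usf3* had 4.97 and 42.5 (34.2 to 53.4). Both plain ratios are higher than that of *Fhad1* with overlapping intervals. The place of *Fhad1* above them thus depends on the pseudocount.

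**Figure D2:**
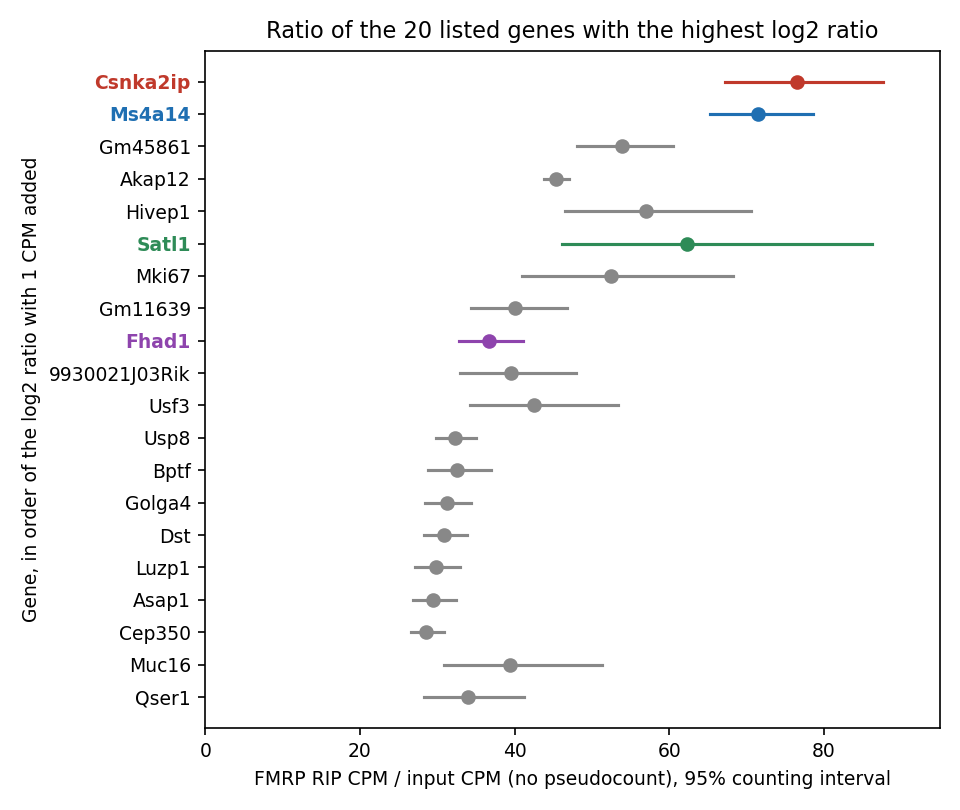
Plain ratio of FMRP RIP to input CPM (x axis) with 95% counting intervals for the 20 genes with the highest log2 ratio, ordered from top to bottom by that ratio with the pseudocount. *Csnka2ip*, *Ms4a14* and *Satl1* have the 3 highest plain ratios of the 20, and the interval of *Satl1*, from 46.1 to 86.2, is the widest.

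To show how far each gene stood from comparable genes, it was set beside the listed genes whose input CPM and span were both within 1.5-fold of its own. For *Csnka2ip*, 192 genes met this, with log2 ratios from 0.60 to 5.61 and a median of 1.64. None of them had a higher ratio, and *Csnka2ip* lay 4.44 log2 units above their median. Their FMRP RIP levels ran from 8.49 to 521.8 CPM with a median of 26.0 CPM, so *Csnka2ip* had 21.8 times the median level. The nearest of all in input and span, *Usp6nl* (7.09 CPM, 123.7 kb), had 51.1 CPM in the FMRP RIP and a log2 ratio of 2.69. *Sptb*, which encodes erythrocyte beta spectrin, and *Ak9*, an adenylate kinase, came next in nearness and had log2 ratios of 2.72 and 3.50. The highest of the 192 was *Gm45861*, with 521.8 CPM from 9.69 CPM. The second was *Fhad1*, itself 1 of the 4 chosen genes, at a log2 ratio of 5.07. Within a narrower limit, from 20% below to 25% above in both input and span, the highest of 54 genes was *Ccdc88a* with 144.0 CPM in the FMRP RIP, and *Csnka2ip* exceeded it 3.95-fold.

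*Ms4a14* stood furthest of the 4 genes from its comparable genes when input and span were both used. With input alone it lay 4.56 log2 units above the median, against 4.61 for *Csnka2ip*. In 100 genes of like input and span, log2 ratios ran from 0.64 to 3.89 with a median of 1.248, which is 4.82 below *Ms4a14*. The highest was *Fam217a*, with an input of 16.4 CPM and an FMRP RIP level of 256.9 CPM. *Ms4a14* had 4.23 times that level and 26.5 times the median of 41.0 CPM. Its nearest genes were *Flii* (actin-remodelling flightless protein), *AC163616.1* and *Bcl7b*, a subunit of chromatin remodelling complexes. They had 33.0, 35.4 and 23.5 CPM in the FMRP RIP and log2 ratios of 1.06, 1.19 and 0.64. Of the 618 listed genes that span no more than *Ms4a14*, the next in ratio was *Ccdc110*, at 4.56 (6.26 CPM in the input, 170.3 CPM in the FMRP RIP).

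For *Satl1*, 120 entries of 117 gene symbols were comparable, with log2 ratios from 0.48 to 5.16 and a median of 1.16, which is 4.04 below *Satl1*. The highest, *Mki67*, had 2.07 CPM in the input, 108.8 CPM in the FMRP RIP and a span of 26.6 kb, and its log2 ratio was only 0.04 below that of *Satl1*. The third, after *Satl1* and *Mki67*, was *Gm13941* at 4.15. *Satl1* had 19.1 times the median FMRP RIP level of 4.55 CPM. Its nearest genes were *Ccr6*, a chemokine receptor, *2410141K09Rik* and *Eps8l2*, with 2.30, 18.1 and 5.59 CPM in the FMRP RIP and log2 ratios of 0.48, 3.09 and 1.48. With the narrower limit, *2410141K09Rik* was the highest of 29 genes, and *Satl1* had 4.80 times its FMRP RIP level. Among all 759 listed genes with no more input than *Satl1*, none had a higher log2 ratio. This depends on the pseudocount, which lowers the ratio most where the input is lowest. *LO018689.1*, with 0.176 CPM in the input, had a plain ratio of 68.8 (31.8 to 231.2), against 62.3 for *Satl1*.

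*Fhad1* stood less far from its comparable genes than the other 3. Its 195 genes of like input and span had log2 ratios from 0.64 to 6.08 and a median of 1.81, 3.26 below *Fhad1*. *Csnka2ip*, with nearly the same span and a like input, and *Gm45861* had higher ratios. *Fhad1* had 10.4 times the median FMRP RIP level of 37.0 CPM. The nearest genes, *Zfp638* (a zinc finger protein), *Lrp6* (a Wnt co-receptor) and *Gm973*, had 45.9, 30.3 and 32.5 CPM in the FMRP RIP, with log2 ratios of 1.99, 1.47 and 1.57. Within the narrower limit, 58 genes remained, the highest ratio was 3.94 for *Ccdc150*, and *Fhad1* had 1.94 times the highest FMRP RIP level, 199.5 CPM. A log2 ratio above 1 was found in 79.7% of the genes comparable with *Csnka2ip*, 66.0% for *Ms4a14*, 61.7% for *Satl1* and 87.7% for *Fhad1*, against 70.1% of all listed genes. As the 4 genes were chosen by this ratio, their distance from comparable genes is a description and was not tested.

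**Figure D3:**
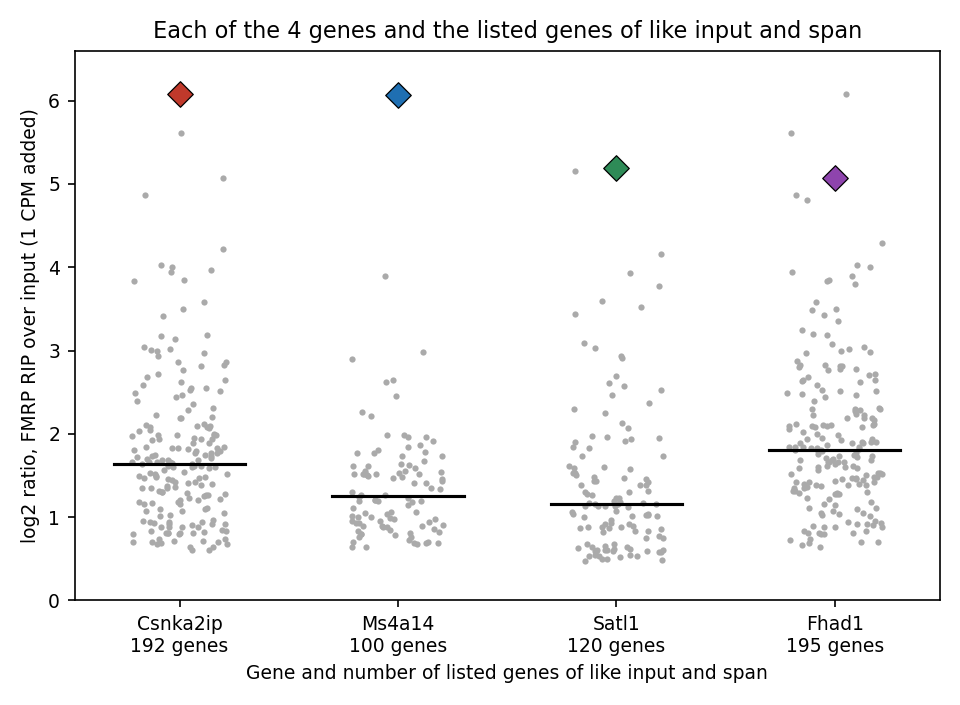
Log2 ratio of FMRP RIP to input with 1 CPM added (y axis) for each of the 4 genes (diamonds) and for the listed genes within 1.5-fold in input CPM and span (grey points, spread sideways for legibility), with the median as a black line. The diamonds of *Csnka2ip*, *Ms4a14* and *Satl1* lie above all their grey points, and 2 grey points lie above *Fhad1*.

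Listed genes with a like FMRP RIP level had higher inputs, which follows from choosing the 4 genes by their ratio and is given only to show the levels. Of 136 listed genes from 20% below to 25% above the FMRP RIP level of *Csnka2ip*, none had a lower input, and their median input was 117.9 CPM against its 7.42 CPM. For *Ms4a14* there were 60 such genes with a median input of 219.7 CPM, and the lowest, *Arid2*, a chromatin remodelling subunit, had 36.3 CPM. For *Satl1*, 405 genes had a median input of 26.1 CPM and the lowest, *Muc16*, had 2.11 CPM. For *Fhad1*, 177 genes had a median of 88.1 CPM and a lowest value of 14.0 CPM, for *Golga4*, a golgin.

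With 1 CPM added, each of the 4 genes had the highest log2 ratio among the listed genes of its chromosome, and no listed gene within 2 Mb had one as high. This follows largely from choosing the 4 genes by their ratio, so it is a description and was not tested. On chromosome 16, *Csnka2ip* led 145 listed genes, and the next, *Usf3*, lay 1.11 log2 units lower. On chromosome 19, *Ms4a14* led 141 listed genes by 1.10 over *9930021J03Rik*. On chromosome X, *Satl1* led 139 listed genes by 1.73 over *Gm382*, where the median log2 ratio was 1.08. That lead depends on the pseudocount, since *Gm382* had only 0.259 CPM in the input. Its plain ratio was 49.9 (25.1 to 116.2), an interval that overlaps that of *Satl1*. On chromosome 4, *Fhad1* led 315 listed genes by only 0.26 over *Luzp1*, a leucine zipper protein. Within 2 Mb on either side, the listed genes had medians of 1.24 for *Csnka2ip* (5 genes), 1.51 for *Ms4a14* (12), 1.38 for *Satl1* (5) and 1.42 for *Fhad1* (12). The highest of these neighbours were *Zfp654* near *Csnka2ip* (3.81) and *Spen*, a transcriptional repressor, near *Fhad1* (4.36).

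**Figure D4:**
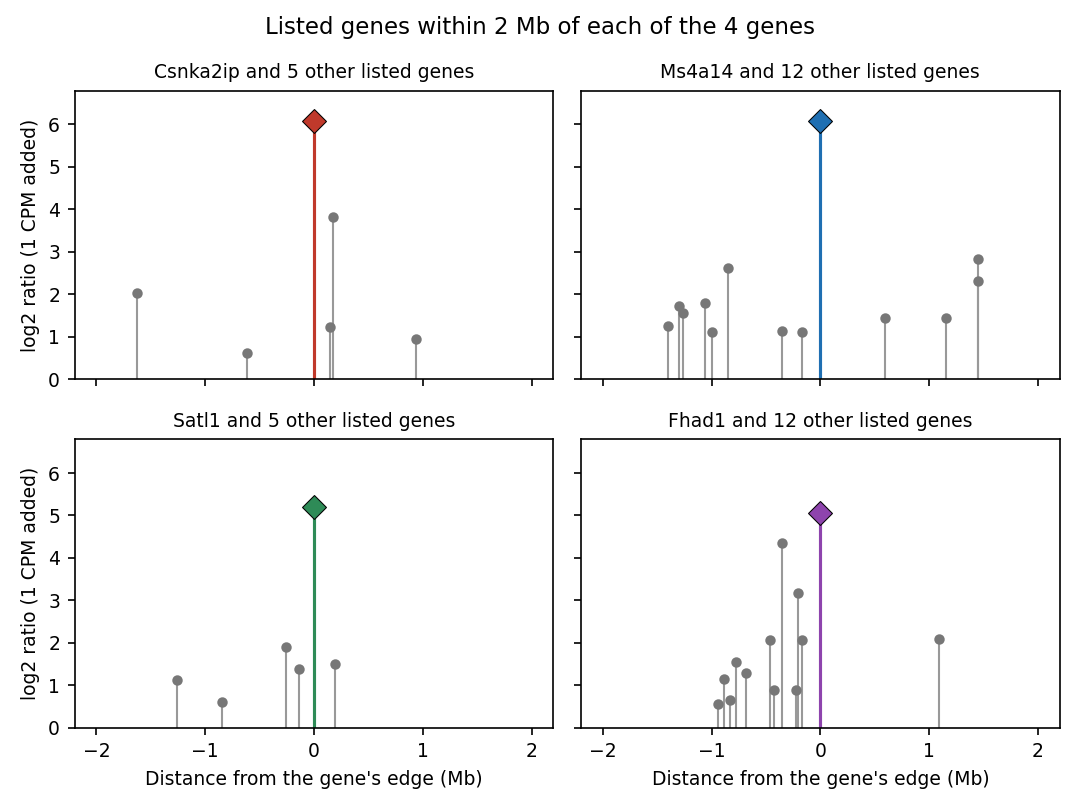
Log2 ratio with 1 CPM added (y axis) of each of the 4 genes (diamond) and of other listed genes within 2 Mb (grey), by distance in Mb from the nearest edge of the gene (x axis; lower coordinates to the left). No grey point reaches the diamond in any panel, which follows largely from choosing the 4 genes by this ratio. The nearest approach is *Spen* at 4.36 beside *Fhad1* at 5.07. The height of *Rsc1a1* near *Fhad1*, with 0 CPM in the input, depends on the pseudocount.

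The closest annotated protein-coding genes were *Epha3* and *4930453N24Rik* for *Csnka2ip*, at 613.6 kb and 159.8 kb, with log2 ratios of 0.62 and 1.24. For the other 3 genes the closest protein-coding gene on each side was not listed, which gives no level for it: *Ms4a5* and *Ms4a7* beside *Ms4a14*, *Apool* and *2010106E10Rik* beside *Satl1*, and *Efhd2* and *Tmem51* beside *Fhad1*. No annotated gene overlapped *Csnka2ip*, *Ms4a14* or *Satl1*. *Fhad1* overlaps 4 noncoding RNA genes, *Fhad1os1*, *Fhad1os2*, *Gm42338* and *Gm35295*. Whether the counting used strand is not given in the sources used here, so reads of *Fhad1* and of these genes cannot be told apart.

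Relatives of the 4 genes were counted against the 4671 of 21896 RefSeq protein-coding genes (21.3%) that the table lists. The 21896 genes were not limited to those expressed in testis, and differences of a group from this share were not tested. In the MS4A family, 2 of 21 genes were listed (9.52%), *Ms4a14* included. Beside *Ms4a14* this was *Ms4a20*, listed under its older name *1700017D01Rik*, with 45.2 CPM in the input, 98.6 CPM in the FMRP RIP and a log2 ratio of 1.11. In the casein kinase 2 group, 3 of 4 genes were listed, *Csnka2ip* included. *Csnk2a2*, the alpha prime subunit that the *Csnka2ip* protein binds, had an input of 46.6 CPM and an FMRP RIP level of 109.5 CPM (log2 ratio 1.21, rank 2754), and *Csnk2a1*, the other catalytic subunit, had 7.22 and 15.3 CPM (0.98). The regulatory subunit gene *Csnk2b* was not listed. *Csnk2a1* and *Csnka2ip* thus had like input levels, 7.22 and 7.42 CPM, and FMRP RIP levels of 15.3 and 568.3 CPM.

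In the polyamine group, 4 of 19 genes were listed (21.1%), close to the 21.3% of all protein-coding genes. Beside *Satl1* these were the transporters *Atp13a3* (log2 ratio 1.66) and *Atp13a2* (1.16) and *Smox* (0.61), which oxidises spermine. *Sat1* and *Sat2*, the acetyltransferases that *Satl1* is named after, were not listed. In the FHA domain group, 19 of 30 genes were listed (63.3%, against 21.3%), and 18 of these 19, *Fhad1* included, had a log2 ratio above 1, against 70.1% of all listed genes. Without *Fhad1* the median was 2.10 and the lowest 0.95, for *Chfr*, a ubiquitin ligase of the mitotic checkpoint. The highest was *Mki67* at 5.16, rank 7 against rank 9 for *Fhad1*. The third of the group, the transcription factor gene *Foxk2*, followed at 2.65 (38.4 CPM in the input, 246.2 CPM in the FMRP RIP). *Mdc1*, a DNA damage mediator, had 92.7 and 397.1 CPM and a log2 ratio of 2.09, so its FMRP RIP level was close to the 386.1 CPM of *Fhad1* while its input was 8.80 times as high.

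Marker genes of testis cells give little context, because the table holds only genes called higher. Of 41 markers, 4 were listed, against 21.3% of all protein-coding genes: *Gfra1* and *Sall4* of spermatogonia, and *Sycp1* and *Sycp2* of spermatocytes, which encode parts of the synaptonemal complex. Their log2 ratios were 1.36, 1.02, 1.11 and 3.59. None of the 10 spermatid markers and none of the 18 markers of Sertoli cells, Leydig cells, peritubular cells, macrophages and endothelium was listed. Which germ cells the 4 transcripts came from was not measured, and in whole testis the number of cells of a type and the RNA per cell cannot be told apart.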

How the data were processed

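RNA from 1 input and 1 FMRP RIP library of wild type adult mouse testis was sequenced as paired-end reads. Per the submitters' processing notes, reads were aligned with STAR to GRCm38/mm10; the counting tool is not given in the sources used here. The authors deposited CPM values (reads per 1000000 of the whole library) for 4788 genes they called higher in the FMRP RIP. Listed genes hold 14.2% of input and 55.2% of FMRP RIP reads. The table's columns of the authors' own comparison (fold changes, p-values, adjusted p-values and calls) were not used.

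Read totals were recovered from the CPM steps: 1 read equals 0.0324 CPM for input and 0.0274 CPM for FMRP RIP, and every value is a multiple of 0.01 read. Log2 ratios used a pseudocount of 1 CPM. Levels have 95% Clopper-Pearson intervals, and ratios an exact binomial interval conditional on the summed reads, rounded to whole reads. The scripts were tested on simulated data. With 1 library per group no test was made. Intervals came from scipy 1.17.1 and tables from pandas 2.3.3, run under Python 3.11.15 with numpy 2.4.6; plots were drawn with matplotlib 3.10.9.

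Genes named are the 4 genes, the 3 listed genes nearest to each in log2(input CPM + 1) and log2 span, the highest of each set of comparable genes, overlapping and flanking genes, ranks 1 to 10 and 4 gene families. *Usf3*, *Gm382*, *LO018689.1*, *Luzp1*, *Ccdc110*, *Gm13941*, *Arid2*, *Muc16*, *Golga4*, *Zfp654*, *Spen*, *Rsc1a1* and the promoter features were chosen after their values were seen. The 4 genes and all lists were chosen with earlier results of these data known. Of the listed rows, 4734 matched a RefSeq symbol and 54 did not. Transcript and protein lengths were not analysed here.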

Additional observations from a re-analysis of the deposited data

How the results depend on the processing

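A pseudocount of 5 CPM gave log2 ratios of 5.53 for *Csnka2ip*, 5.76 for *Ms4a14*, 3.84 for *Satl1* and 4.65 for *Fhad1*, at ranks 2, 1 and 50 for the first 3 genes, and distances above the median of comparable genes of 4.24 for *Csnka2ip* and 3.30 for *Satl1*. A pseudocount of 1 CPM divided by 8 put *Satl1* at 5.84, *Csnka2ip* at rank 2 and *Fhad1* at rank 20. Without a pseudocount *Satl1* had 5.96 and *Fhad1* rank 14. Scaling on the reads of genes not listed multiplied every FMRP RIP level by 1.92 and gave 7.02 for *Csnka2ip*, 7.01 for *Ms4a14*, 6.13 for *Satl1* and 6.005 for *Fhad1*. With genes compared on input alone, *Ms4a14* lay 4.56 and *Fhad1* 3.55 above the median. *Fhad1* lay 3.47 above it with the narrower limit and 3.48 above it on span alone. The other 6 log2 ratios, 10 ranks and 26 distances recomputed under the alternatives moved by less than the counting interval, or for ranks by at most 1.5 times. Over 9 settings each, the distance was 4.24 to 4.61 for *Csnka2ip*, 4.56 to 4.90 for *Ms4a14*, 3.30 to 4.35 for *Satl1* and 3.16 to 3.55 for *Fhad1*.

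No paired analysis was possible because there was only 1 input and 1 FMRP RIP library. Protein length in place of gene span was not run. The counting interval of *Satl1*, with 43 input reads, was the widest of the 4 genes. Without replicates the spread between mice and between precipitations is unknown, and without an IgG library binding to the beads or to another antibody was not tested.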
